A study of Homo sapiens with 15 samples.

Results

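In all, 10 genes of the NF-kB system were followed across 15 RNA-seq libraries. They are the 5 genes of the DNA-binding subunits (NFKB1, NFKB2, RELA, RELB and REL) and 5 genes of inhibitors or nuclear coregulators (NFKBIA, NFKBIE, NFKBIZ, TNFAIP3 and BCL3). They were chosen by gene symbol, and all 10 were found among the 38415 symbols shared by the IMR90 and Huh7 count tables, which list 59428 and 59412 genes. The question of the study was whether THBD, the gene of the endothelial anticoagulant receptor thrombomodulin, is needed for senescence.

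IMR90 is a human lung fibroblast line, here driven into senescence by HRAS G12V. It gave 3 libraries with a THBD shRNA in set 1, 3 in set 2 and 3 with a non-targeting shRNA (control). The names set 1 and set 2 stand for the title prefixes shTHBD1 and shTHBD2. Libraries labelled set 1 below are thus those with the prefix shTHBD1. Huh7, a line from a human hepatocyte-derived carcinoma made senescent with palbociclib, an inhibitor of the cell cycle kinases CDK4 and CDK6, gave 3 libraries with a THBD shRNA and 3 with a non-targeting shRNA. Every library, controls included, therefore comes from cells given an inducer of senescence, and no comparison here is with growing cells. Each inducer was used in 1 line, so line and inducer cannot be told apart, and the labels do not say what the set number stands for.

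NF-kB proteins bind DNA as pairs of subunits. NFKB1 and NFKB2 encode precursors (p105 and p100) that are processed to p50 and p52, which lack a transactivation domain, while RELA, RELB and REL carry one. In resting cells the IkB proteins, among them the products of NFKBIA (IkB alpha) and NFKBIE (IkB epsilon), hold the dimers in the cytoplasm until the IKK kinases mark them for destruction. NFKBIA, NFKBIE, TNFAIP3 (the ubiquitin-editing enzyme A20), NFKB1, NFKB2, RELB and REL are themselves textbook NF-kB targets, so the pathway rebuilds its own brakes and subunits. NFKBIZ (IkB zeta) and BCL3 are nuclear IkB family members that bind p50 or p52 at DNA and can activate genes. In senescent cells NF-kB is known as a main driver of the senescence-associated secretory phenotype, which includes IL6, CXCL8 and many chemokines.

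The promoters are shown because most of the 10 genes are known as targets of the factor they encode or restrain. RefSeq promoter windows (GRCh38.p14, 250 bases before to 50 after a transcription start) were at hand for 8 of the 10 genes, in 13 windows; RELB and NFKBIE had none. Each window was searched on both strands for the kB consensus, which is 10 bases long (3 G, a purine, any base, A or T, 2 pyrimidines and 2 C), and for its looser core (3 G, any 5 bases, 2 C), which every consensus match also holds. The consensus was present in 9 of the 13 windows and in 7 of the 8 genes, against 5.91% of 35116 windows and 7.09% of 27305 genes in the whole RefSeq table. The core was in all 13 windows, against 58.7% of all windows. RELA was the gene with no consensus match. A match describes the letters and is not evidence of binding. The stretches around the matches are given 5' to 3' on the gene's strand, with each match, or run of overlapping matches, in capitals.

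NFKB1 window 1, chr4:102501300-102501329 (+): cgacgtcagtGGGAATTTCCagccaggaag
NFKB2 window 2, chr10:102394461-102394519 (+): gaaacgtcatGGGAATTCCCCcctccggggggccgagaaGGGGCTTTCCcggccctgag
NFKB2 window 3, chr10:102395519-102395548 (+): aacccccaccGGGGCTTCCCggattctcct
NFKB2 window 3, chr10:102395674-102395703 (+): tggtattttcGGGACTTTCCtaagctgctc
REL window 1, chr2:60881517-60881547 (+): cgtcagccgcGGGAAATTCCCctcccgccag
NFKBIA window 1, chr14:35404811-35404840 (-): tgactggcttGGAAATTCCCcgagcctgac
NFKBIZ window 1, chr3:101827757-101827786 (+): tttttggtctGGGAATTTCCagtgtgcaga
NFKBIZ window 2, chr3:101849265-101849294 (+): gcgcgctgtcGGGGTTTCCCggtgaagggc
TNFAIP3 window 1, chr6:137867182-137867223 (+): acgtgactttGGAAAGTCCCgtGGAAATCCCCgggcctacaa
BCL3 window 1, chr19:44748700-44748729 (+): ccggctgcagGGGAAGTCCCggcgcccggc

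In NFKB1 the match began 49 bases before the start, in REL 47, in NFKBIA 81 and in TNFAIP3 67 bases before it. TNFAIP3 held 2 matches, separated by a pair of bases, and NFKB2 window 2 held 2 runs of capitals. The BCL3 match began 2 bases after the start. For context, the whole 250 bases before the start are given for NFKB1 window 1, RELA window 2 and NFKBIA window 1, again with matches in capitals. No consensus match was found in either RELA window, in NFKB1 window 2 or in NFKB2 window 1.

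NFKB1, chr4:102501109-102501358 (+): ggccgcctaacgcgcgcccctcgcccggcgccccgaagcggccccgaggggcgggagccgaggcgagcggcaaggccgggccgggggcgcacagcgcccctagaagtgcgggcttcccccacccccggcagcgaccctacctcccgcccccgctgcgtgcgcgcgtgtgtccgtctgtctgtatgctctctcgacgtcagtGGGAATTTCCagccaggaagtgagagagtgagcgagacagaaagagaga
RELA, chr11:65662917-65663166 (-): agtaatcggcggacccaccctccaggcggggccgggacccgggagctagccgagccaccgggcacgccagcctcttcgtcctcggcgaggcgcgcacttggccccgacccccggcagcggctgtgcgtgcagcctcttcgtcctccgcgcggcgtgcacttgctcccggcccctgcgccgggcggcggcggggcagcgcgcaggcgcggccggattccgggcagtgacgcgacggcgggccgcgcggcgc
NFKBIA, chr14:35404750-35404999 (-): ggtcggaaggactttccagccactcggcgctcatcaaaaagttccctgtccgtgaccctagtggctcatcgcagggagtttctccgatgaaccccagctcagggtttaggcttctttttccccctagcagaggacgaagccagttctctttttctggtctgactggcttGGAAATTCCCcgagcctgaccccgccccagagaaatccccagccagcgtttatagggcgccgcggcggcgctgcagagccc

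Library totals were 18256773 to 21509229 counts in IMR90 and 19328182 to 25236178 in Huh7. THBD itself had 39.4, 36.6 and 37.3 CPM (counts scaled to a common library total) in set 1, 10.5, 11.5 and 11.4 CPM in set 2 and 16.5, 18.8 and 19.99 CPM in control IMR90. The target was thus higher, not lower, in set 1 (log2 fold change 1.09 ± 0.076, SE; adjusted p = 1.21e-20) and lower in set 2 (-0.81 ± 0.090; adjusted p = 1.49e-12). Set 1 therefore goes against its titles, which name a THBD shRNA. In Huh7, THBD had no count in the 3 shTHBD libraries and in 2 of 3 controls and 6 counts in the third, where 3 counts are the floor of detection, so the knockdown could not be checked there. HRAS was 640 ± 12.7 CPM in libraries labelled set 1, 663 ± 16.6 in set 2 and 559 ± 8.85 in control (SD, n = 3 each), and it was called higher in both sets. The fibroblast markers (10 genes) summed to 4745 to 4836 CPM in libraries labelled set 1, 12640 to 12820 in set 2 and 6490 to 6581 in control. COL1A1 and VIM were their most abundant genes, and none of the 10 was at 0. The higher sum in set 2 was mostly COL1A1 (4397 against 1744 CPM in control) and COL1A2 (3528 against 785). COL3A1, DCN, LUM and VIM were also higher. PDGFRA (92.6 against 141), PDGFRB (51.0 against 64.6), THY1 (206 against 376) and FAP (99.7 against 122) were lower. In set 1, PDGFRA (203 CPM) and PDGFRB (78.2 CPM) were above control and the others below it. The hepatocyte markers (10 genes) summed to 4646 to 4722 CPM in Huh7 shTHBD and 6477 to 6718 in Huh7 control. In IMR90 the hepatocyte markers summed to 132 to 142 CPM in libraries labelled set 1, 11.5 to 13.1 in set 2 and 15.9 to 17.9 in control, nearly all of it SERPINA1 in set 1, with APOB, FGB and TTR at 0 in all 3 groups. The fibroblast markers in Huh7 summed to 1683 to 1745 CPM in shTHBD and 1059 to 1108 in control, led by VIM. Leukocyte markers stayed at or under 5.74 CPM in every library, with CD2 and MS4A1 at 0 in all IMR90 groups. The 8 endothelial markers summed to 31.1 to 31.6 CPM in set 1, 13.2 to 15.6 in set 2 and 23.8 to 27.0 in control IMR90. ROBO4 led in each group (means of 25.6, 7.38 and 15.1 CPM) and carried the higher sum in set 1. TEK, VWF and CLDN5 were lower in set 1 (2.42, 1.16 and 1.32 CPM) than in control (3.29, 3.31 and 3.24 CPM). PECAM1, CDH5, KDR and ERG were at or under 0.511 CPM in both groups. The part of these shifts in the NF-kB results was not tested. In Huh7 shTHBD, replicate 3 stood apart from replicates 1 and 2 (chi-square per degree of freedom 9.91 and 12.4, against 4.32 between those 2), and the calls in Huh7 were the same without it. In these bulk samples, fewer cells of a type and less RNA per cell cannot be told apart.

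The main result in IMR90 was that the 2 sets moved the 10 genes differently. In set 2, 9 of the 10 were called lower than control (edgeR's quasi-likelihood test, Benjamini-Hochberg adjusted p under 0.05) and none higher, where 34.1% of the 15411 genes tested were called lower and 33.2% higher. The count of members higher was 0 at an unadjusted p under 0.05 and 0 with DESeq2. The median log2 fold change of the 10 genes was -0.62 in set 2, against 0.01 over all genes. In libraries labelled set 1, 5 were higher (NFKB1, RELA, RELB, NFKBIA and NFKBIE), 3 were lower (NFKB2, NFKBIZ and TNFAIP3) and 2 were not called (REL and BCL3). The shares over all genes there were 27.3% higher and 26.5% lower, and the median was 0.01 for the members and -0.0019 for all genes. In Huh7, 1 was higher (TNFAIP3), 5 were lower (NFKB1, RELB, NFKBIE, NFKBIZ and BCL3) and 4 were not called, with 25.9% of the 17474 genes tested higher and 27.3% lower. The Huh7 median was -0.23 for the members and 0.002 for all genes. With over 25% of all genes called each way in Huh7 and in both IMR90 sets, a single call is common and is best read with its size.

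**Figure D1:**
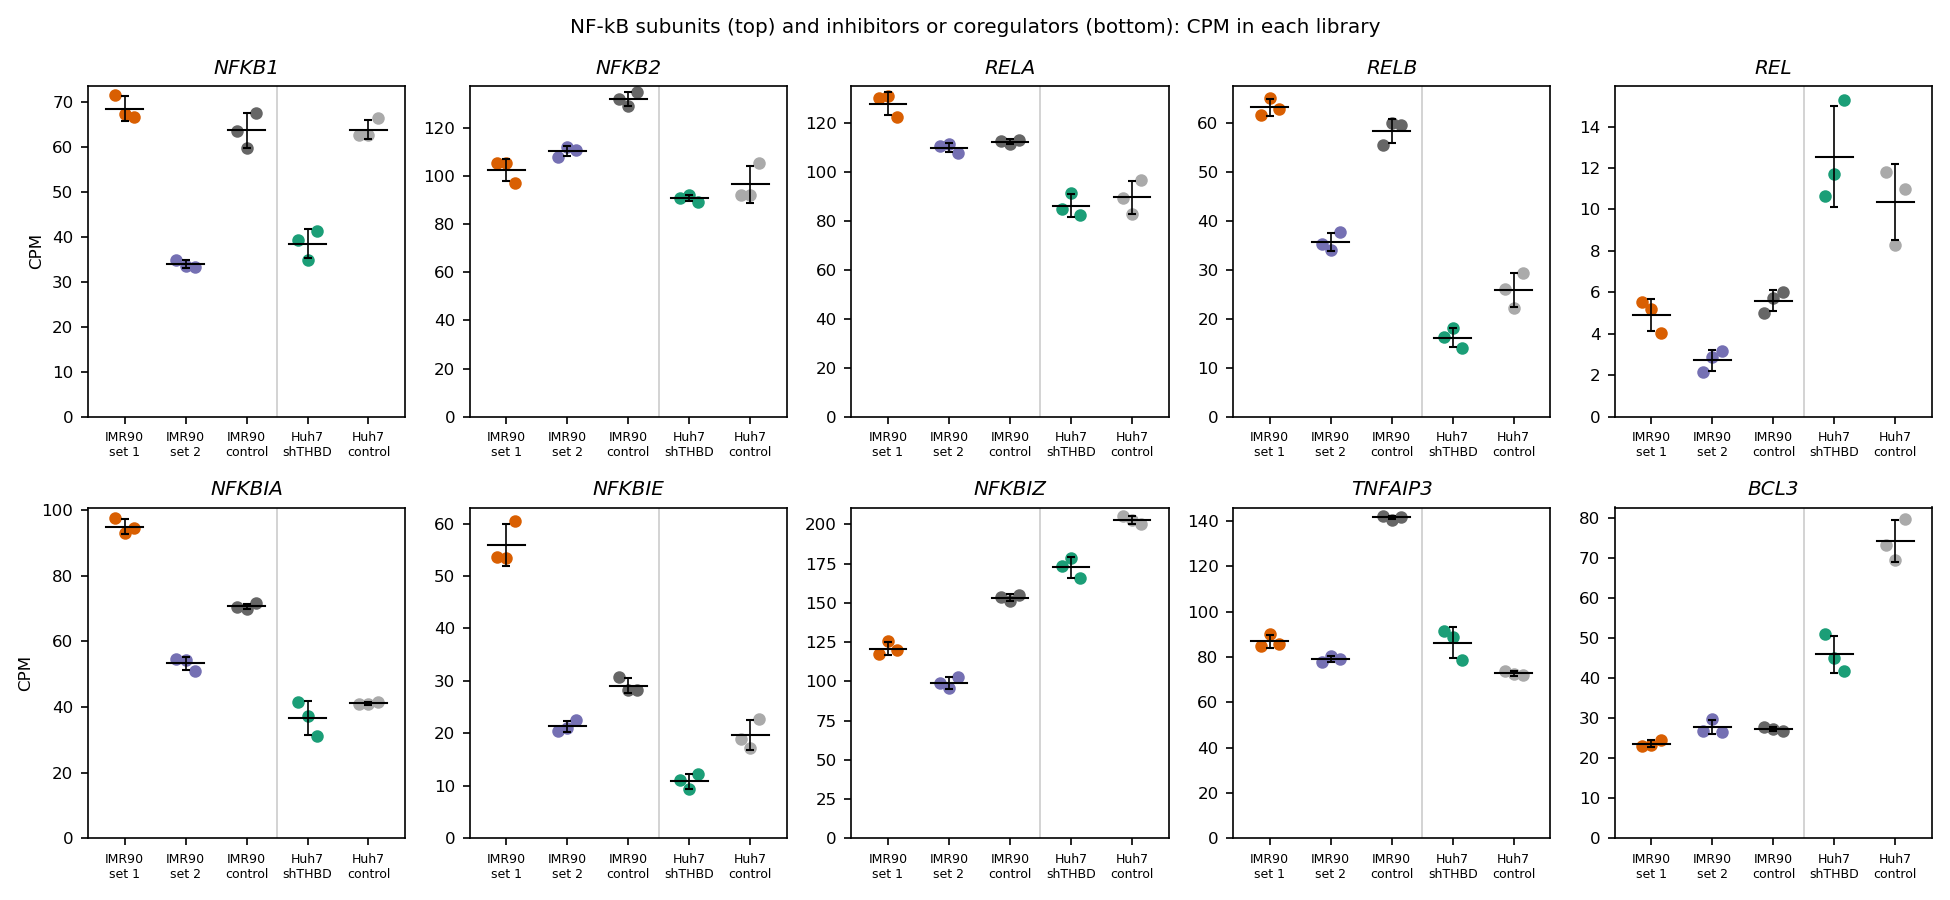
CPM of each gene in each library (points), with the group mean (line) and SD (bar), 3 libraries a group; each panel's y axis starts at 0. NFKBIE in libraries labelled set 1 sits at 53.5 to 60.5 CPM, above set 2 and control, and TNFAIP3 in both IMR90 sets sits under 90.0 CPM, below the control libraries at 140.6 to 142 CPM.

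Among the subunits, NFKB1 (p105/p50) was the clearest case of a fall shared by set 2 and Huh7. It was at 71.7, 67.4 and 66.6 CPM in libraries labelled set 1, at 35.0, 33.7 and 33.3 CPM in set 2 and at 63.6, 59.9 and 67.7 CPM in control IMR90. Set 2 lay far below the control without overlap, while set 1 and control overlapped in CPM from library totals. The log2 fold change was -0.99 ± 0.055 in set 2 (adjusted p = 1.29e-26) and 0.16 ± 0.050 in libraries labelled set 1 (adjusted p = 0.00531). That small rise was not called without set 1 replicate 1 (0.13, adjusted p = 0.0506) or without control replicate 2 (0.12, adjusted p = 0.0756). In Huh7, NFKB1 was at 39.4, 34.9 and 41.3 CPM in shTHBD and 62.8, 62.6 and 66.4 CPM in control, again with no overlap, and the change was -0.76 ± 0.082 (adjusted p = 1.54e-09). The control levels of the 2 lines were close for this gene, at 63.7 ± 3.88 CPM in IMR90 and 63.9 ± 2.16 in Huh7, from tables counted separately.

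RELB, the partner of p52 in the non-canonical pathway, followed NFKB1. Its values were 61.7, 65.0 and 62.8 CPM in libraries labelled set 1, 35.3, 34.0 and 37.8 in set 2 and 55.5, 60.1 and 59.5 in control IMR90. All set 1 libraries lay above the control and all set 2 libraries below it. RELB changed by 0.17 ± 0.051 (adjusted p = 0.00348) in set 1 and by -0.79 ± 0.055 (adjusted p = 2.07e-21) in set 2. In Huh7 it was at 16.2, 18.1 and 14.2 CPM in shTHBD and 26.1, 22.3 and 29.3 CPM in control, a change of -0.71 ± 0.11 (adjusted p = 3.11e-06), also without overlap.

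NFKB2 (p100/p52) fell in both sets. It was at 105, 105 and 97.1 CPM in libraries labelled set 1, at 108, 112 and 111 CPM in set 2 and at 132, 129 and 135 CPM in control IMR90. Both sets lay below all controls. The changes were -0.31 ± 0.038 (adjusted p = 6.05e-11) in set 1 and -0.34 ± 0.037 (adjusted p = 7.27e-13) in set 2, and the direct difference of set 1 over set 2 was 0.033 ± 0.038 (adjusted p = 0.45). In CPM from library totals the Huh7 groups overlapped, at 90.9, 92.1 and 89.3 in shTHBD and 91.9, 92.0 and 105 in control. NFKB2 was not called there (-0.12 ± 0.067, adjusted p = 0.149).

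RELA, the p65 subunit of the canonical dimer, moved least among the subunits in set 2. Its CPM values were 130.0, 131 and 122 in libraries labelled set 1, 110.3, 111 and 108 in set 2, and 112, 111 and 113 in control IMR90. The set 2 libraries lay just under the controls, a change of -0.12 ± 0.037 (adjusted p = 0.00448) that 14.4% of all genes tested fell short of in size. That call was lost under upper-quartile scaling (-0.049, adjusted p = 0.239). In libraries labelled set 1, all above the control, RELA was higher by 0.24 ± 0.037 (adjusted p = 4.78e-08). In Huh7 it overlapped, at 84.8, 91.2 and 82.2 CPM in shTHBD and 89.3, 82.8 and 96.4 CPM in control, and was not called (-0.085 ± 0.069, adjusted p = 0.313).

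REL (c-Rel), best known from lymphocytes, was the lowest of the 10 per length in every group. It had 5.53, 5.20 and 4.06 CPM in libraries labelled set 1, 2.16, 2.88 and 3.16 CPM in set 2 and 5.03, 5.73 and 6.04 CPM in control IMR90. Set 2 lay below the control, and set 1 overlapped it. REL had the largest fitted fall of the 10 in set 2, at -1.12 ± 0.18 (adjusted p = 1.04e-07), with the widest error, and was not called in set 1 (-0.13 ± 0.16, adjusted p = 0.511). In Huh7 it had 10.7, 11.7 and 15.3 CPM in shTHBD and 11.8, 8.29 and 10.97 CPM in control, and was not called (0.25 ± 0.16, adjusted p = 0.184). In the tables' annotation 43.3% of the REL exon bases are shared with an overlapping gene model that had no count in any library. Per its header the IMR90 table was counted without the option that keeps fragments overlapping 2 genes, so fragments on the shared bases were not counted for REL there. The level of REL per length was taken over all its exon bases, so it is understated in IMR90, as is its part in the subunit sums below. The same is likely in Huh7, where the overlapping model had no count either but the counting options were not given.

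The inhibitors split further. NFKBIA, the gene of the fast feedback inhibitor IkB alpha, was at 97.5, 92.9 and 94.6 CPM in libraries labelled set 1, at 54.8, 54.2 and 50.9 CPM in set 2 and at 70.5, 69.9 and 71.6 CPM in control IMR90. The sets lay on opposite sides of the control with no overlap. NFKBIA changed by 0.48 ± 0.043 (adjusted p = 9.84e-16) in set 1 and by -0.49 ± 0.047 (adjusted p = 3.35e-15) in set 2. In Huh7 the groups overlapped in CPM from library totals, at 41.6, 37.2 and 31.3 in shTHBD and 40.8, 41.1 and 41.6 in control. The gene was not called (-0.19 ± 0.090, adjusted p = 0.0684). It was called without shTHBD replicate 1 (-0.29, adjusted p = 0.0179).

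NFKBIE, the gene of IkB epsilon, showed the largest rise of the 10 in libraries labelled set 1. It was at 53.6, 53.5 and 60.5 CPM there, at 20.4, 21.1 and 22.5 CPM in set 2 and at 30.8, 28.3 and 28.3 CPM in control IMR90. Again the sets lay on opposite sides of the control. The change was 1.00 ± 0.063 in set 1 (adjusted p = 7.78e-23), larger in size than that of 90.8% of all genes tested, and -0.53 ± 0.072 in set 2 (adjusted p = 9.27e-10). In Huh7, NFKBIE was at 11.1, 9.39 and 12.2 CPM in shTHBD and 18.9, 17.2 and 22.8 CPM in control, a change of -0.88 ± 0.13 (adjusted p = 1e-06) and the largest fall of the 10 in that line.

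TNFAIP3, whose product A20 removes activating ubiquitin chains upstream of IKK, fell in both IMR90 sets and rose in Huh7. It was at 84.8, 90.0 and 85.7 CPM in libraries labelled set 1, at 77.7, 80.4 and 78.9 CPM in set 2 and at 142, 140.6 and 142 CPM in control IMR90. All 6 libraries labelled shTHBD lay below all 3 controls. The log2 fold changes were -0.65 ± 0.038 (adjusted p = 9.6e-25) in set 1 and -0.92 ± 0.039 (adjusted p = 1.9e-33) in set 2. In Huh7 it was at 91.3, 89.0 and 78.4 CPM in shTHBD, above the 73.7, 72.6 and 71.8 CPM of the control, a change of 0.22 ± 0.069 (adjusted p = 0.00816). The Huh7 rise was not called without shTHBD replicate 1 (0.18, adjusted p = 0.0633).

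NFKBIZ, the gene of IkB zeta, an inducible cofactor for IL6 and other secondary response genes, fell in both IMR90 sets and in Huh7. It was at 118, 125 and 119.7 CPM in libraries labelled set 1, at 98.9, 95.5 and 103 CPM in set 2 and at 154, 151 and 155 CPM in control IMR90. No library of either set reached a control. The falls were -0.29 ± 0.036 (adjusted p = 1.27e-10) in set 1 and -0.71 ± 0.037 (adjusted p = 2.49e-28) in set 2. In Huh7, with 174, 179 and 166 CPM in shTHBD and 205, 203 and 200.1 CPM in control, the change was -0.26 ± 0.057 (adjusted p = 0.000221).

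BCL3, a coactivator of p50 and p52 dimers, changed little in IMR90 and fell in Huh7. It was at 23.2, 23.2 and 24.7 CPM in libraries labelled set 1, at 26.8, 29.8 and 26.7 CPM in set 2 and at 27.9, 27.4 and 26.8 CPM in control IMR90. Set 1 lay below the control and set 2 overlapped it. Neither was called, at -0.15 ± 0.073 (adjusted p = 0.0733) in set 1 and -0.062 ± 0.072 (adjusted p = 0.455) in set 2, although the set 1 fall was called under upper-quartile scaling (-0.18, adjusted p = 0.029). In Huh7 the shTHBD libraries had 51.0, 45.2 and 41.9 CPM and the controls 73.4, 69.5 and 79.9 CPM, a change of -0.72 ± 0.079 (adjusted p = 1.96e-09).

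**Figure D2:**
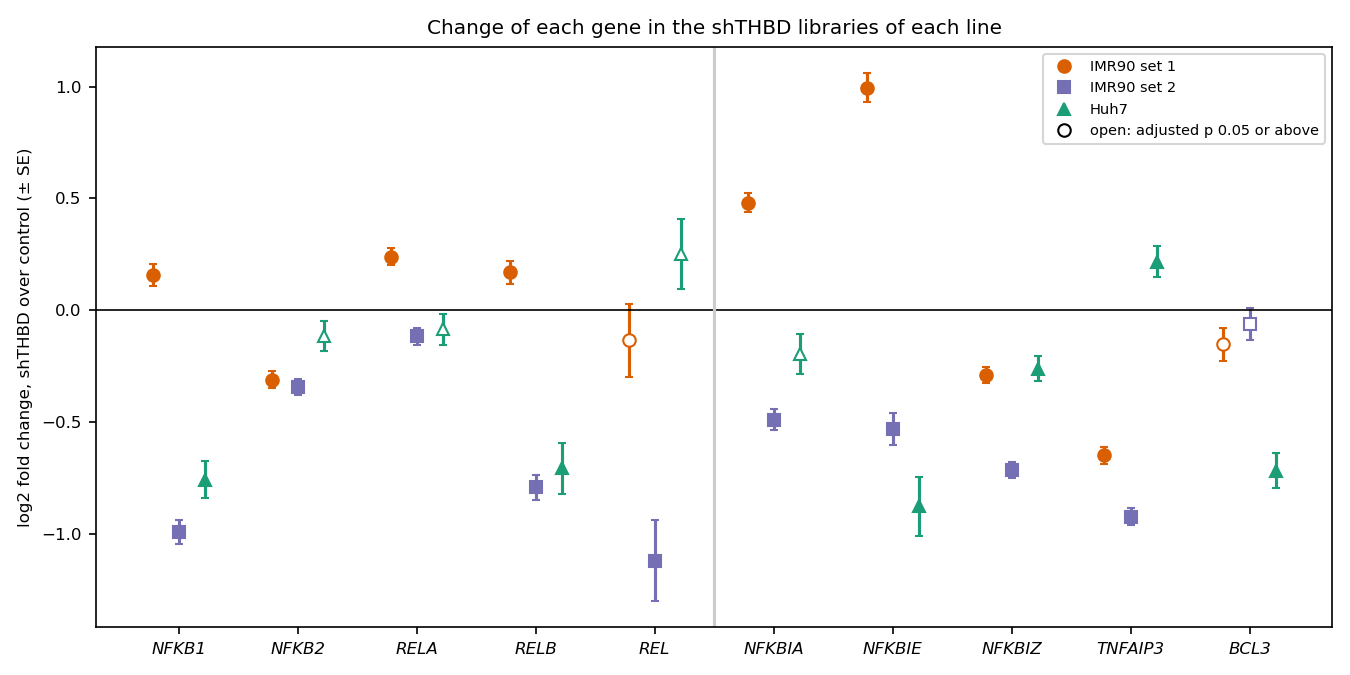
Log2 fold change over control (± SE) of each gene in IMR90 set 1 (circles), IMR90 set 2 (squares) and Huh7 (triangles); open symbols were not called. NFKB1 and RELB fall in set 2 and Huh7, NFKBIE and NFKBIA point up in set 1 and down in set 2, and TNFAIP3 points down in IMR90 and up in Huh7.

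The difference between the sets was also tested directly, since both share the same 3 controls. Set 1 over set 2 was higher for 8 of the 10 genes and lower for 0, against 33.9% of all genes higher and 35.6% lower. The count lower was 0 at an unadjusted p under 0.05 and 0 with DESeq2, and 1 (BCL3) under upper-quartile scaling, which moves the median of all genes in this comparison to -0.13 from -0.030. NFKBIE differed most (1.53 ± 0.067, adjusted p = 2.25e-32), followed by NFKB1 (1.15 ± 0.054, adjusted p = 2.05e-30). REL, NFKBIA and RELB differed by 0.96 to 0.99, and NFKBIZ, RELA and TNFAIP3 by 0.27 to 0.43. NFKB2 and BCL3 (-0.089 ± 0.073, adjusted p = 0.277) were not called, although their unscaled CPM values in set 1 all lay below those in set 2.

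Lines were compared as the difference of 2 effects in a joint fit of 16682 genes. The effect of set 1 exceeded that in Huh7 for 6 genes (NFKB1, RELA, RELB, NFKBIA, NFKBIE and BCL3) and was under it for 2 (NFKB2 and TNFAIP3), with 23.9% and 23.6% of all genes called those ways. NFKBIE had the largest such difference, 1.86 ± 0.14 (adjusted p = 1.97e-14). The effect of set 2 exceeded that in Huh7 for BCL3 alone (0.63 ± 0.11, adjusted p = 5.01e-06) and was under it for 6 genes, with 21.2% and 22.8% of all genes called those ways. Of the 6, REL (-1.40 ± 0.26, adjusted p = 1.76e-05) and TNFAIP3 (-1.17 ± 0.072, adjusted p = 1.35e-16) differed most. NFKBIZ (-0.48), NFKBIA (-0.33), NFKB1 (-0.26, adjusted p = 0.0252) and NFKB2 (-0.26) differed less. The NFKB1 call was lost in 5 of 20 alternatives (adjusted p up to 0.0968), among them those without Huh7 shTHBD replicate 3, the library that stood apart (-0.19), and without set 2 replicate 3 (-0.25). RELA (-0.061 ± 0.072), RELB (-0.12 ± 0.12) and NFKBIE (0.32 ± 0.14) did not pass this test. For RELA and RELB a different response of set 2 and Huh7 was not shown, and their errors leave room for one. NFKBIE was close to the threshold (adjusted p = 0.0675) and was called in 4 of 20 alternatives, among them upper-quartile scaling (0.36, adjusted p = 0.0391), the fit with replicate number as a block (0.31, adjusted p = 0.0414) and the fit without Huh7 shTHBD replicate 3 (0.42, adjusted p = 0.0116). Without the libraries labelled set 1 in the joint fit, the set 2 counts were again 1 and 6.

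**Figure D3:**
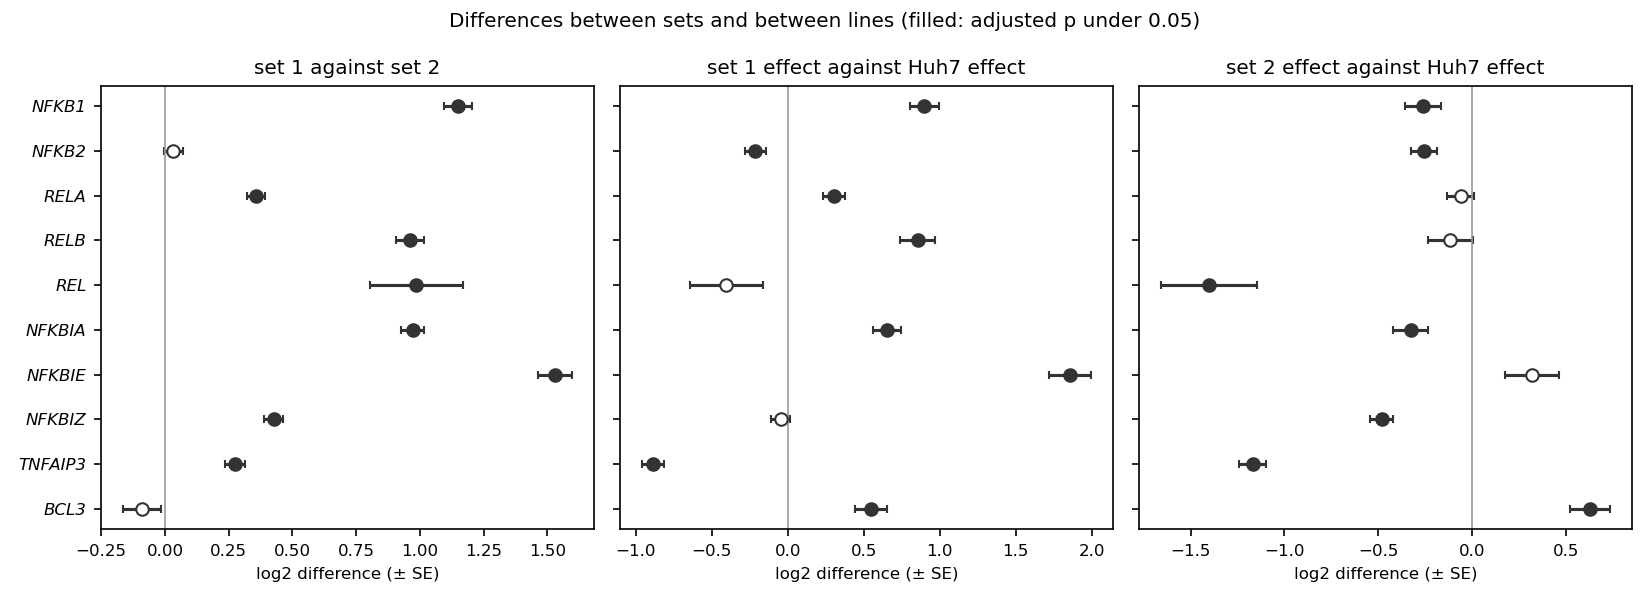
Log2 differences (± SE) of set 1 over set 2 and of each IMR90 effect over the Huh7 effect; open points were not called. NFKBIE is farthest right in the first and second panels (1.53 and 1.86), and REL and TNFAIP3 are farthest left in the third (-1.40 and -1.17).

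Levels per length were compared between genes in TPM (transcript abundance per length, from the tables' gene lengths). In control IMR90 the order was NFKBIA (106 ± 1.43), TNFAIP3 (101 ± 0.553), NFKB2 (99.9 ± 2.35), NFKBIZ (92.9 ± 1.22), RELA (73.5 ± 0.611), RELB (69.1 ± 3.11), NFKBIE (40.3 ± 1.85), NFKB1 (35.8 ± 2.21), BCL3 (31.6 ± 0.559) and REL (1.52 ± 0.144). TNFAIP3 and NFKB2 were the only neighbours in this order whose libraries overlapped. In libraries labelled set 1 NFKBIA led with 139 ± 4.24 TPM and NFKBIE had 75.0 ± 5.06. NFKB2 led in set 2 with 80.5 ± 1.34 TPM, just above NFKBIA with 77.4 ± 3.33, and these 2 overlapped. In Huh7 NFKBIZ led, with 102 ± 5.68 TPM in shTHBD and 119 ± 0.730 in control, and BCL3 ranked 6 of 10 in shTHBD with 52.1 ± 5.93 and 2 of 10 in control with 83.4 ± 6.16 (SD, n = 3 for each).

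The make-up of the subunit transcripts shifted with these changes. NFKB1 made 13.96% ± 0.480 of the summed TPM of the 5 subunits in libraries labelled set 1, 8.78% ± 0.280 in set 2 and 12.8% ± 0.576 in control IMR90. NFKB2 made 28.1% ± 0.467, 38.4% ± 0.560 and 35.7% ± 0.455 in the same groups, and RELA 30.3% ± 0.229, 33.0% ± 0.713 and 26.3% ± 0.393. RELB made 27.1% ± 0.910 in set 1, 19.5% ± 0.964 in set 2 and 24.7% ± 0.962 in control. RELA and NFKB2 together thus made up more of the pool in set 2 and NFKB1 and RELB less. In Huh7 the shares ran the same way as in set 2 for these 4 subunits. NFKB1 made 12.8% ± 1.39 in shTHBD and 17.9% ± 0.816 in control, and RELB 11.3% ± 1.11 and 15.2% ± 0.999. NFKB2 made 40.6% ± 0.402 in shTHBD and 36.4% ± 0.963 in control, and RELA 33.3% ± 0.996 and 29.1% ± 0.411. The 5 subunits summed to 268 ± 9.10 TPM in libraries labelled set 1, 209.7 ± 0.611 in set 2 and 279.8 ± 6.10 in control IMR90.

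The balance of inhibitor to subunit was described as NFKBIA over RELA in TPM. The ratio was 1.73, 1.64 and 1.78 in libraries labelled set 1, 1.14, 1.12 and 1.09 in set 2 and 1.44, 1.45 and 1.46 in control IMR90. The 3 groups did not overlap. In Huh7 it was 1.13, 0.937 and 0.877 in shTHBD and 1.05, 1.14 and 0.991 in control, where the groups overlapped. The summed TPM of the 5 inhibitor and coregulator genes was 371 ± 3.02 in libraries labelled set 1, 248.8 ± 2.23 in set 2 and 372 ± 3.56 in control IMR90. In set 1 the rises of NFKBIA and NFKBIE thus met falls of TNFAIP3 and NFKBIZ in the sum. The Huh7 sums were 283 ± 23.6 in shTHBD and 339.8 ± 9.80 in control (SD, n = 3 for each).

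**Figure D4:**
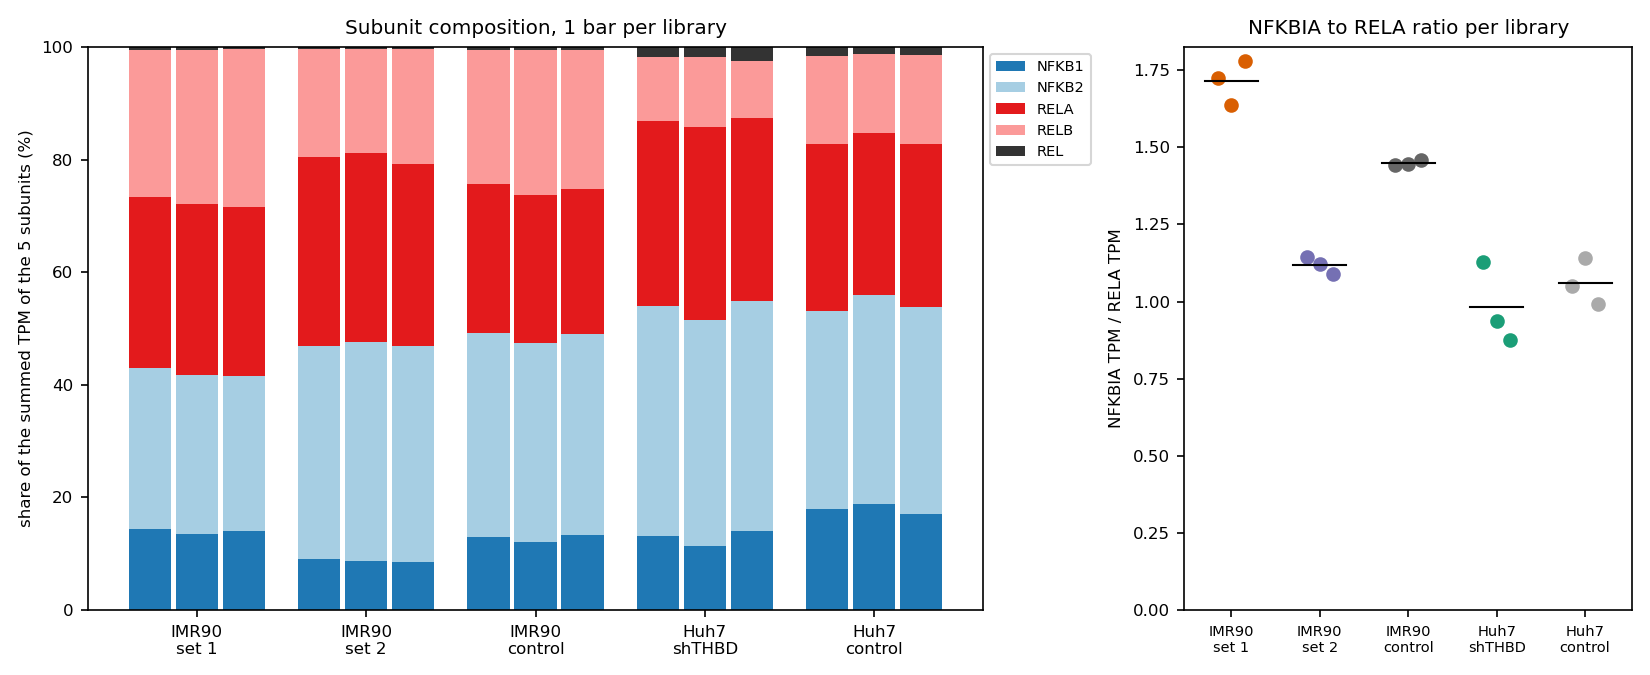
Left, the share of each subunit gene in the summed TPM of the 5, 1 bar per library; right, NFKBIA over RELA (TPM) per library, with group means as lines. NFKB1 takes 8.78% on average in IMR90 set 2 and 12.8% in control, and the NFKBIA to RELA ratio is highest in libraries labelled set 1 (1.64 to 1.78).

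Over the 9 IMR90 libraries the 10 genes fell into patterns in log2 CPM. RELB tracked NFKB1 (r = 0.98), NFKBIA tracked NFKBIE (r = 0.97) and RELA (r = 0.97), and TNFAIP3 tracked NFKB2 (r = 0.96) and NFKBIZ (r = 0.94). NFKB2 and NFKBIE had r = -0.095, and BCL3 had r = -0.56 with RELA. These values describe 3 groups of 3 libraries and carry no test. Among the 9339 genes with at least 10 CPM in a group, those most like REL, which had the largest set 2 change, were TANGO2, BPTF and ATP9B (r = 0.98 each). Those most like NFKBIE, which had the largest set 1 change, were CMPK1, PGK1 and ARID3B (r = 0.996 each). As the top of 9339 genes over 3 groups of libraries, such high values are not evidence of shared regulation.

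Known NF-kB targets, a list of 40 secreted factors, adhesion molecules and survival genes, fell with set 2. There 32 of the 36 tested were called lower and 3 higher, with a median log2 fold change of -1.66 against 0.01 over all genes and with 34.1% of all genes called lower and 33.2% higher. The neutrophil chemokine CXCL1 was at 48.8 CPM in set 2 and 797 CPM in control (-4.11 ± 0.032, adjusted p = 3.69e-79). CCL20, which draws CCR6-bearing lymphocytes, was at 8.17 and 127 CPM in the same groups (-4.04 ± 0.062). GADD45B (1.72 ± 0.088) and the proteoglycan SDC4 (1.35 ± 0.027) led the 3 that rose. In libraries labelled set 1 the list was divided, with 15 of 36 higher and 19 lower and a median of -0.17, where 27.3% of all genes were called higher and 26.5% lower. MMP9, a gelatinase, was at 152 CPM there and 10.9 CPM in control (3.86 ± 0.061), although it fell in set 2 (-2.42 ± 0.13). CD83 rose in set 1 (1.27 ± 0.15), while the chemokines CXCL6 (-2.46 ± 0.085) and CCL2 (-1.97 ± 0.047) fell. In Huh7, 20 of 29 were lower and 2 higher, with a median of -0.84 against 0.002 and with 27.3% of all genes lower and 25.9% higher. The acute-phase gene SAA2 (-3.92 ± 0.16) and CCL20 (-3.84 ± 0.073) fell most, and TRAF1 (0.61 ± 0.15) and NAMPT (0.44 ± 0.066) rose. Both also rose in set 1 (0.42 ± 0.077 for TRAF1 and 0.30 ± 0.022 for NAMPT) and fell in set 2 (-1.15 ± 0.089 and -1.89 ± 0.024). Set against the 10 genes, whose median was -0.62 in set 2 and -0.23 in Huh7, the targets' medians lay lower in each of those comparisons.

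Upstream genes were called in both directions. Of 25 kinases and adaptors, 12 were lower and 6 higher in set 2 (median -0.16), 5 lower and 8 higher in libraries labelled set 1 (median 0.090), and 11 lower and 4 higher in Huh7 (median -0.14). Over all genes the shares lower and higher were 34.1% and 33.2% in set 2, 26.5% and 27.3% in set 1, and 27.3% and 25.9% in Huh7, so the list lay near the background in set 1. MYD88, the adaptor of IL-1 and Toll-like receptors, was at 12.4 CPM in set 2 and 46.3 CPM in control IMR90 (-1.98 ± 0.070), and at 31.02 CPM in Huh7 shTHBD and 88.9 CPM in Huh7 control (-1.55 ± 0.075). It was higher in libraries labelled set 1 (0.38 ± 0.056). IKBKE, a kinase of the IKK family, fell in set 1 (-0.47 ± 0.072), set 2 (-1.46 ± 0.079) and Huh7 (-2.05 ± 0.11). TRAF6 and TRAF5, of a family of ubiquitin ligases and adaptors, rose in set 2 (0.65 ± 0.089 and 0.84 ± 0.092) and in Huh7 (0.71 ± 0.12 and 0.51 ± 0.16). BIRC2 rose in set 1 (0.32 ± 0.041) and fell in set 2 (-0.34 ± 0.043) and Huh7 (-0.39 ± 0.076). RBCK1 fell in set 1 (-0.33 ± 0.035), set 2 (-0.22 ± 0.035) and Huh7 (-0.24 ± 0.059).

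Of 14 receptors, 11 were tested in IMR90, with 5 lower and 2 higher in set 2 and 2 lower and 5 higher in set 1, and 13 were tested in Huh7, with 6 lower and 3 higher. Set against the same shares of all genes, counts of this size in so short a list are not a result about the receptors. TNFRSF1B (TNF receptor 2) fell in set 2 (-2.004 ± 0.044) and in Huh7 (-2.34 ± 0.26) and rose in set 1 (0.41 ± 0.036). IL1RAP, the accessory chain of the IL-1 receptor, fell in set 2 (-1.18 ± 0.11) and Huh7 (-1.91 ± 0.076) and rose in set 1 (0.62 ± 0.096). IL1R1, the ligand-binding chain, rose in set 2 (0.73 ± 0.058) and Huh7 (0.32 ± 0.063). IL17RA rose in set 1 (0.66 ± 0.047) and set 2 (0.46 ± 0.047) but fell in Huh7 (-0.23 ± 0.079). Of 18 other inhibitors, 17 were tested in IMR90, with 5 lower and 9 higher in set 2 and 5 lower and 6 higher in set 1. All 18 were tested in Huh7, with 6 lower and 7 higher. The shares of all genes lower and higher were 34.1% and 33.2% in set 2 and 26.5% and 27.3% in set 1. They were 27.3% and 25.9% in Huh7. In so short a list these counts are not a result about the inhibitors either. RNF11 and N4BP1, which work with or beside A20, rose in set 2 (0.74 ± 0.029 and 0.61 ± 0.056) and in Huh7 (1.29 ± 0.058 and 1.06 ± 0.082). ZC3H12A (Regnase-1), an RNase that degrades cytokine transcripts, fell in set 1 (-0.33 ± 0.034), set 2 (-0.97 ± 0.036) and Huh7 (-0.32 ± 0.078). PDLIM2 fell in set 1 (-0.39 ± 0.093) and Huh7 (-0.78 ± 0.11) but rose in set 2 (0.57 ± 0.084). OTULIN rose in set 1 (0.45 ± 0.064) and in Huh7 (0.45 ± 0.089) and was not called in set 2 (0.028 ± 0.066). All of these genes had adjusted p under 0.05 where a change is given, apart from OTULIN in set 2.

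**Figure D5:**
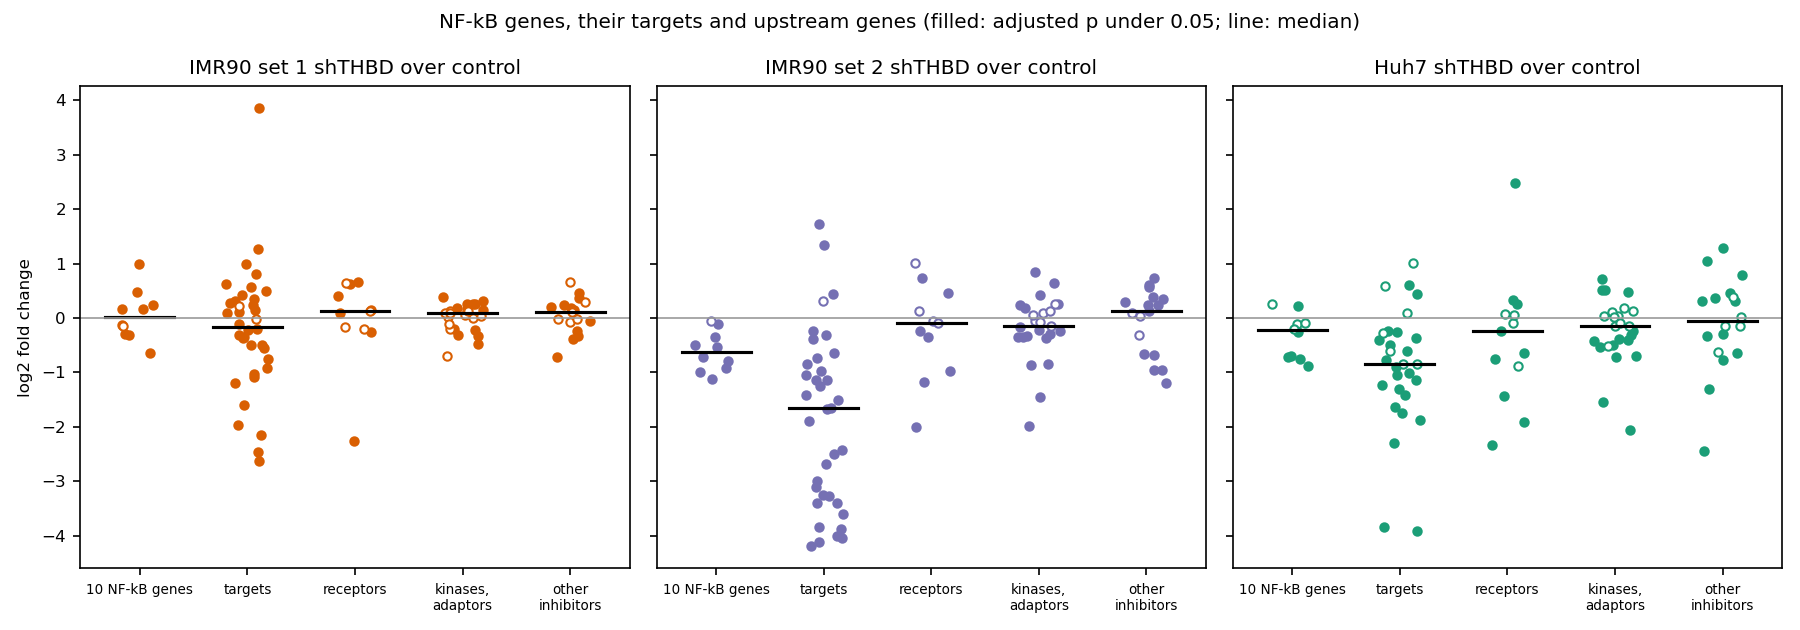
Log2 fold change over control of the 10 genes and of the tested genes of 4 lists, by comparison; filled points were called, lines are medians. The targets' median is -1.66 in IMR90 set 2 and -0.84 in Huh7, lower than that of the 10 genes and of the upstream lists.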

How the data were processed

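The authors deposited whole-number gene counts per library, which were used as given. Per the submitters' processing notes, fastp, STAR, featureCounts and GRCh38 were used. featureCounts 2.0.1, per the file headers for IMR90, counted fragments over exons by gene name with GENCODE 38, with no strand option; for Huh7, the version, options and annotation were not given in the sources used here. RELA and TNFAIP3 share exon bases with antisense genes (85 and 95 bases), which counts without strand cannot tell apart. NFKBIZ shares 194 bases with NXPE3.

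The 9 IMR90 libraries (15411 genes tested), the 6 Huh7 libraries (17474) and all 15 together (16682 shared symbols, for differences of effects) were each fitted with edgeR 4.0.16 in R 4.3.3: filterByExpr, TMM scaling, quasi-likelihood F test, Benjamini-Hochberg over all tested genes, called under 0.05. The common biological coefficient of variation was 3.13%, 8.20% and 5.48%. SE is the fold change over the root of F, an approximation. CPM used library totals, and TPM the tables' lengths. Statements on overlap of libraries rest on these values, without the TMM scaling used for the calls. The TMM factors ran from 0.954 to 1.056 in IMR90 and from 0.975 to 1.024 in Huh7. A narrow overlap or gap may thus differ after TMM scaling. Alternatives were DESeq2 1.42.0, upper-quartile scaling, other filters, other sets of samples, dropping each library in turn, and a block for replicate number. The scripts were tested on simulated counts.

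All 10 members were named whatever their values. From each pathway list, up to 2 largest rises and falls among called genes with at least 5 CPM in a group qualified, and the text gives a part of them. Members and lists were chosen with earlier results of these data known. A set 2 library (replicate 3) has a description naming Huh7 while its other labels name IMR-90; it was kept, and without it 9 members were again lower. Whether replicates came from separate cultures is not stated, so p-values reflect just the spread among these libraries, which may be technical. The floor of 3 counts covers counting error only.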

Additional observations from a re-analysis of the deposited data

Results flagged for a closer look

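Differences between the sets, or between the lines, that passed their own test are collected here, all on the log2 scale and from edgeR's quasi-likelihood test. Set 1 over set 2 was higher for NFKBIE (1.53), NFKB1 (1.15), REL (0.99), NFKBIA (0.97), RELB (0.96), NFKBIZ (0.43), RELA (0.36) and TNFAIP3 (0.27). For NFKB1, RELA, RELB, NFKBIA and NFKBIE the 2 sets were called on opposite sides of control, and for NFKBIZ and TNFAIP3 both were called lower. The NFKB1 rise in set 1 was not called without control replicate 2 or without set 1 replicate 1. The RELA fall in set 2 was not called under upper-quartile scaling.

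The effect of set 1 minus that in Huh7 was 1.86 for NFKBIE, 0.90 for NFKB1, 0.86 for RELB, 0.66 for NFKBIA, 0.55 for BCL3, 0.31 for RELA, -0.21 for NFKB2 and -0.89 for TNFAIP3. The effect of set 2 minus that in Huh7 was 0.63 for BCL3, -0.26 for NFKB1 (lost in 5 of 20 alternatives), -0.26 for NFKB2, -0.33 for NFKBIA, -0.48 for NFKBIZ, -1.17 for TNFAIP3 and -1.40 for REL. TNFAIP3 was called lower in both IMR90 sets and higher in Huh7. These differences carry the line, the inducer and the table together, which cannot be told apart.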

How the results depend on the processing

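Over the alternatives, 923 recomputed values of the 10 genes kept their side of the threshold, 10 were no longer called, 7 became called, and no called value changed sign. Among values not called, NFKB2 in set 1 against set 2 (-0.066) and BCL3 in set 2 against control (0.0050) changed sign under upper-quartile scaling. Under upper-quartile scaling, 1 member was lower in set 1 than in set 2, and 2 exceeded Huh7 in set 2. RELA was then no longer called against control in set 2, which left 8 members lower there. BCL3 became called in set 1, which made 4 members lower there. With the replicate block, which the labels share only by number (correlations of deviations from -0.052 to 0.022), 2 members exceeded Huh7 in set 2, and no other count of members moved; no crossing was tried. Leaving out 1 library, the members higher in set 1 ranged from 4 to 5, those higher in Huh7 from 0 to 1 and those lower in Huh7 from 5 to 6. The members under Huh7 ranged from 1 to 2 in set 1 and from 5 to 6 in set 2. Those above Huh7 in set 2 ranged from 1 to 2. The 2 members were BCL3 and NFKBIE; NFKBIE passed without Huh7 control replicate 2 (0.40, adjusted p = 0.0238) or shTHBD replicate 3 (0.42, adjusted p = 0.0116). NFKB2 in set 1 against Huh7 was lost without set 1 replicate 3 (-0.18, adjusted p = 0.062). NFKB1 in set 2 against Huh7 was lost without control replicate 3 (-0.21), set 2 replicate 2 (-0.25), set 2 replicate 3 (-0.25) or Huh7 shTHBD replicate 3 (-0.19) and under upper-quartile scaling (-0.22). The cause of these changes was not tested. The joint fit without the libraries labelled set 1 was added after seeing the data. REL, at 2.16 to 15.3 CPM, is the member whose precision depth limits most.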
